A study of Mus musculus with 8 samples.

Results

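The genes described here carry dietary fat through the enterocyte, the absorptive cell of the small intestine, and into chylomicrons, the lipoprotein particles that the cell releases into lymph. They are 10 genes taken by symbol from the deposited tables, namely *Apoa1*, *Apoa4*, *Apob*, *Apoc3*, *Mttp*, *Fabp1*, *Fabp2*, *Dgat1*, *Mogat2* and *Cd36*, and all 10 were listed among the 11554 genes of the crypt table and the 12701 genes of the villus table. The rule used function alone and no measured value, though the members were chosen with earlier results of these data known. RNA of small intestinal crypts and of villi was sequenced from control (Ctrl) and *Gli1-Ptgs* cKO animals, all on a C57BL/6 background, with 2 libraries per genotype and tissue. In the cKO mice, tamoxifen-induced *Gli1*-CreERT2 deletes *Ptgs1* and *Ptgs2*, which encode the cyclooxygenases COX1 and COX2, in Gli1+ mesenchymal cells, and tissue was taken 1 month after tamoxifen. The labels give the Ctrl genotype as WT and name *Gli1-CreERT2; Rosa26-tdTomato* for the control mice, whereas the study's text describes its controls as floxed mice without Cre, so which control alleles these libraries carry is uncertain. The deletion is made in mesenchyme, while the libraries were prepared from epithelial material. The 2 Ctrl villus libraries held identical values for all 12701 genes and were counted as 1, which leaves 7 distinct libraries.

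Long-chain fatty acids and monoacylglycerol enter the enterocyte from the lumen, are bound in the cytosol by fatty acid binding proteins, and are joined again into triacylglycerol on the endoplasmic reticulum. Triacylglycerol is then loaded onto apolipoprotein B by the microsomal triglyceride transfer protein, smaller apolipoproteins join the particle, and the finished chylomicron leaves through the Golgi. Cells gain this machinery as they move from the crypt, where they divide, onto the villus, where they absorb. On GRCm38 (GENCODE M21), *Apoa1* (chr9:46228580-46230466, plus strand), *Apoc3* (chr9:46232933-46235636, minus strand) and *Apoa4* (chr9:46240696-46243459, plus strand) lie side by side. The other genes are apart, with *Apob* at chr12:7977648-8016835, *Mttp* at chr3:138089854-138144968, *Fabp1* at chr6:71199827-71205023, *Fabp2* at chr3:122895072-122899506, *Dgat1* at chr15:76502015-76511953, *Mogat2* at chr7:99219084-99238619 and *Cd36* at chr5:17781690-17888801.

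Promoter sequence is shown for 3 members that lay at different places on the crypt to villus axis, *Apoa4* and *Fabp2* with large villus excess and *Apob* with none in Ctrl mice. RefSeq windows on GRCm38.p6, each running from 250 bases before to 50 bases after the annotated start, matched 7 of the 10 members, and *Apoc3*, *Dgat1* and *Mogat2* had no window. Capitals mark matches to a search on both strands for CAAAGTNCA and CAAAGGTCC, forms of the element bound by HNF4 factors, and for the TATA box TATAAA. These motifs were chosen after the promoters had been read, so the matches are a description and not evidence of binding. All 3 stretches lie on the plus strand, 5′ to 3′, and end before the first annotated base of the gene, at chr9:46240594-46240695 for *Apoa4*, chr3:122894822-122895071 for *Fabp2* and chr12:7977427-7977647 for *Apob*.
Apoa4: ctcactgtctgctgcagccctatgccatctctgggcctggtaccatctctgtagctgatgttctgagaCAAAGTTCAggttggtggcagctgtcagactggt
Fabp2: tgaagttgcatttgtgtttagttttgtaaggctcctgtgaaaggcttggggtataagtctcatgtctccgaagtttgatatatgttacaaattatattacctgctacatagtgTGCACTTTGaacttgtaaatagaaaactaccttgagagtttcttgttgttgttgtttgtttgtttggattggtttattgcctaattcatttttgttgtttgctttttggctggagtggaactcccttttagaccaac
Apob: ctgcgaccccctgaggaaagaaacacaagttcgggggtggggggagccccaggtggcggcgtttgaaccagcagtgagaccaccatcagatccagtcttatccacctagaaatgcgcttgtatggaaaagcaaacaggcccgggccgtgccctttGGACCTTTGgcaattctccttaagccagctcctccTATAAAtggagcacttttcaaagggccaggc

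CAAAGTNCA was found in the windows of 2 of the 7 members, *Apoa4* on the gene's own strand and *Fabp2* on the opposite strand, and in 1.41% of all 32851 windows. CAAAGGTCC was found in the *Apob* window on the opposite strand, and in 0.310% of all windows. TATAAA was found in the *Apob* and *Fabp1* windows and in 13.6% of all windows. The genes for the HNF4 factors, added here because of these motifs, were read in every library. *Hnf4a* had normalized counts of 15222.5 and 17512 in the Ctrl crypts, 12973 and 18450.4 in the cKO crypts, 10219 in the Ctrl villi, and 7646 and 8544 in the cKO villi. A normalized count is the number of reads on a gene divided by the size factor of its library. *Hnf4g* had 2435 and 4146 in the Ctrl crypts, 1809 and 4791 in the cKO crypts, 2331 in the Ctrl villi, and 3957 and 3457 in the cKO villi. The crypt groups overlapped for both genes.

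Reads on listed genes lay between 16853017 and 21121714 per crypt library and between 13477600 and 15751024 per villus library. *Ptgs1* was low in every library and did not separate the genotypes (365 and 164 in Ctrl crypts, 178 and 199 in cKO crypts), and *Ptgs2* and *Gli1* were not listed, so the deletion could not be read from these epithelial tables. All 16 enterocyte markers were listed in both tables, with summed normalized counts of 124213 and 184343 in Ctrl crypts and 123779 and 156099 in the cKO crypts, and the 11 stem and crypt markers summed to 391634 to 664580 in crypts and 9006 to 14180 in villi, so each tissue held its defining markers. Of the hepatocyte markers, which would accompany a liver source of the apolipoproteins, none of 6 was listed in the crypts and 1 of 6 in the villi (*Tat*, 5.35 to 20.9). Of the adipocyte markers, which would accompany another source of *Cd36*, 1 of 7 was listed, and *Adipoq*, *Plin1* and *Fabp4* were not among the listed genes. The mesenchyme markers, 7 of 7 listed in crypts and 6 of 7 in villi, summed to 8701 to 15904 in crypts and 1777 to 2053 in villi, led by *Dcn* and *Col3a1*, and 1 or 2 of 7 endothelium markers and 3 of 6 lymphatic markers were listed, at sums of at most 424. The ileum markers, 5 of 7 listed in crypts, summed to 6165 and 10198 in Ctrl and 12522 and 5039.7 in cKO, overlapping between the groups, as did the lymphocyte markers (2092 and 2250 in Ctrl, 1140.4 and 2304 in cKO) and the jejunum and duodenum markers (10361 and 14575 in Ctrl, 12098 and 14455 in cKO). In bulk RNA, fewer cells of a type and less RNA per cell cannot be told apart.

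The first comparison asked where along the crypt to villus axis the genes were read in Ctrl mice. Levels were set on CPM, a gene's reads scaled to a common total over the 11227 genes of both tables, since the tables were normalized separately, and with 1 distinct Ctrl villus library no test was made. The villus level was more than 2-fold above both Ctrl crypt libraries for 6 of the 10 genes, against 7.66% of all genes, and more than 10-fold for 5 of the 10, against 0.285% of all genes. Those 5 were the small apolipoproteins and the cytosolic fatty acid binding proteins. *Apoc3*, encoding an inhibitor of lipoprotein lipase, was 19.5 times as high in villus as in the mean crypt (15.7 to 25.7 over the 2 crypt libraries). *Apoa1*, the main structural protein of high density lipoprotein, was 15.3 times as high (11.7 to 22.4), and *Apoa4*, a chylomicron protein, 13.7 times (10.4 to 20.4). *Fabp1*, the fatty acid binding protein shared with liver, was 15.0 times as high (14.6 to 15.4), and *Fabp2*, the intestinal form, 13.6 times (13.2 to 14.1). The ranges of these 5 ratios overlapped except that the range of *Fabp2* lay below those of *Fabp1* and *Apoc3*, and the range of *Apoc3* lay just above that of *Fabp1*.

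The enzymes of triacylglycerol synthesis and the assembly genes were less unequal. *Mogat2*, which acylates monoacylglycerol, was 6.39 times as high in villus as in crypt (5.45 to 7.71). *Dgat1*, which makes triacylglycerol from diacylglycerol, was 2.10 times as high (1.99 to 2.22). *Mttp*, the lipid loading protein, was 1.35 times as high (1.24 to 1.48), and *Cd36*, a fatty acid transporter, 1.34 times (1.20 to 1.51). *Apob*, the backbone of the chylomicron, was at 0.671 of the crypt level (0.547 to 0.868) and was the one member whose Ctrl villus level lay below both Ctrl crypts. Its log2 ratio of −0.58 still lay above the Ctrl median of all genes in both tables (−1.08) and of their longest 10% (−2.14). In the cKO mice the *Apob* ratio was 3.22 (1.72 to 7.41), so its order between the tissues was the opposite, and the ratio of *Cd36* was 3.09 (2.17 to 4.48). The cKO ratios of *Apoa1* (8.48), *Mogat2* (3.65), *Fabp1* (11.2) and *Fabp2* (10.4) lay below their Ctrl ratios without overlap of the ranges, and those of *Apoa4* (11.3), *Apoc3* (14.3), *Dgat1* (2.45) and *Mttp* (2.02) overlapped them. The difference between genotypes was not tested here, and every Ctrl range rests on the same single villus library. The share of all genes whose ranges did not overlap was not counted. Both the order of the members and the difference between genotypes moved with transcript length. Over all genes in both tables, the median log2 ratio of villus to crypt in Ctrl mice was 0.29 for the shortest 10% and −2.14 for the longest 10%, beside −1.08 for all. In the cKO mice these medians were −0.37, −0.68 and −0.59. The part of length in the order of the members was not tested.

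**Figure D1:**
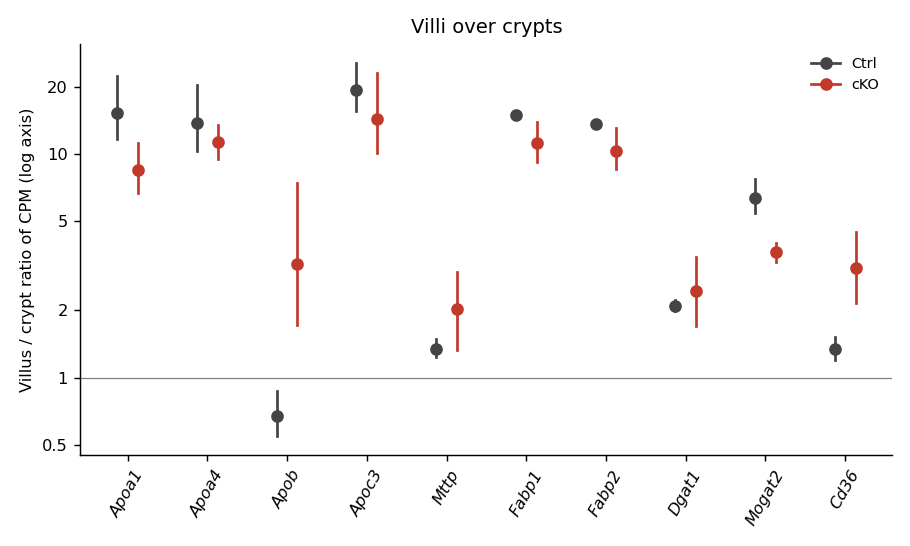
Ratio of CPM in villi over crypts for each member (log axis), in Ctrl (grey, 1 villus library over 2 crypt libraries) and cKO (red, 2 over 2). Points are ratios of means and lines run from the lowest to the highest ratio of single libraries. *Apob* sits at 0.671 in Ctrl and 3.22 in cKO, and *Apoa1*, *Apoa4*, *Apoc3*, *Fabp1* and *Fabp2* sit at or above 8.48 in both.

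Together the 10 genes took 0.340% to 0.430% of the reads of the common genes in the 4 crypt libraries and 2.63%, 2.58% and 2.30% in the Ctrl and both cKO villus libraries. Per length (CPM divided by the transcript's length in kilobases), the order in the Ctrl villi was *Fabp2* (9861), *Apoa1* (7556), *Fabp1* (6220), *Apoa4* (813), *Apoc3* (667), *Dgat1* (504), *Mogat2* (379), *Mttp* (367), *Apob* (29.9) and *Cd36* (9.01). In the Ctrl crypts the top 3 were *Fabp2* (700.3 and 745), *Fabp1* (426 and 404) and *Apoa1* (338 and 646), with *Dgat1* (254 and 227) and *Mttp* (248 and 297) next. The spread of *Apoa1* over the 2 crypts covered the level of *Fabp1*, and *Dgat1* and *Mttp* also overlapped. *Mogat2* (49.2 and 69.6), *Apoa4* (39.9 and 78.4), *Apob* (34.5 and 54.7) and *Apoc3* (26.0 and 42.6) overlapped each neighbour in that order, and *Cd36* (5.96 and 7.52) lay below all of them.

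The second comparison asked whether loss of mesenchymal cyclooxygenases changed these genes in the crypt epithelium. None of the 10 members passed the study's threshold in limma, an absolute log2 fold change above 1 with p below 0.01, where 0.182% of all genes did. None passed an adjusted p of 0.05, where 0% of all genes did, and none had an unadjusted p under 0.05, where 0.632% did. edgeR and DESeq2 on the recovered reads also called none of the 10. With cKO replicate 2 left out, *Apob* (−1.15) and *Apoc3* (1.08) passed the threshold, as did 593 genes higher and 288 lower over the whole table, in a fit whose spread comes from the 2 Ctrl libraries alone, the lone cKO library being assumed to vary like them. The smallest p over the members was 0.187 for *Fabp1* in limma, with an adjusted p of 1.00. The Ctrl and cKO values did not overlap for 1 of the 10 members, against 21% of all genes. With 2 libraries per group, an exact permutation test of a single gene cannot go below p = 0.333.

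Among the fatty acid binding proteins, *Fabp1* had normalized counts of 4318 and 4242 in Ctrl crypts and 7038 and 4661 in the cKO crypts. It was the member whose groups did not overlap, and cKO replicate 2 exceeded the higher Ctrl library only narrowly. Its log2 fold change, on log2(normalized count + 1), was 0.42 (SE 0.29, 95% confidence interval −0.26 to 1.10). *Fabp2* had 12381 and 13649 in Ctrl and 19497 and 12117 in cKO, with a log2 fold change of 0.24 (SE 0.33), and the 2 cKO libraries lay on both sides of the Ctrl libraries.

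Among the apolipoproteins, *Apoa1* had 6409 and 12702 in Ctrl crypts and 17504 and 10355.5 in the cKO crypts. Its Ctrl libraries differed from each other by 0.99 on the log2 scale, more than the log2 fold change of 0.58 (SE 0.43, 95% confidence interval −0.44 to 1.59). *Apoa4* had 1327 and 2701 in Ctrl and 2440.3 and 2634 in cKO, so both cKO values fell inside the Ctrl range (log2 fold change 0.42, SE 0.36). *Apoc3* had 337 and 573 in Ctrl and 934 and 415 in cKO, with only cKO replicate 1 above the Ctrl libraries (0.50, SE 0.46). *Apob* had 8797 and 14471 in Ctrl and 5068 and 12959 in cKO, with only cKO replicate 1 below them. Its log2 fold change was −0.48 (SE 0.49, 95% confidence interval −1.64 to 0.69).

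*Mttp* had 17982 and 22342 in Ctrl crypts and 16327 and 20584 in the cKO crypts (log2 fold change −0.13, SE 0.31). *Mogat2* had 1604 and 2353 in Ctrl and 2513 and 2316 in cKO (0.31, SE 0.27), and *Dgat1* had 8773 and 8139 in Ctrl and 9249 and 6219 in cKO (−0.16, SE 0.29). For *Cd36*, the level was low throughout, at 371 and 485 in Ctrl and 344 and 475 in cKO (−0.07, SE 0.32). For all 4 genes the groups overlapped. The median log2 fold change of the 10 members was 0.28, beside −0.01 for all genes, and it was 0.37 in cKO replicate 1 and 0.14 in cKO replicate 2.

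**Figure D2:**
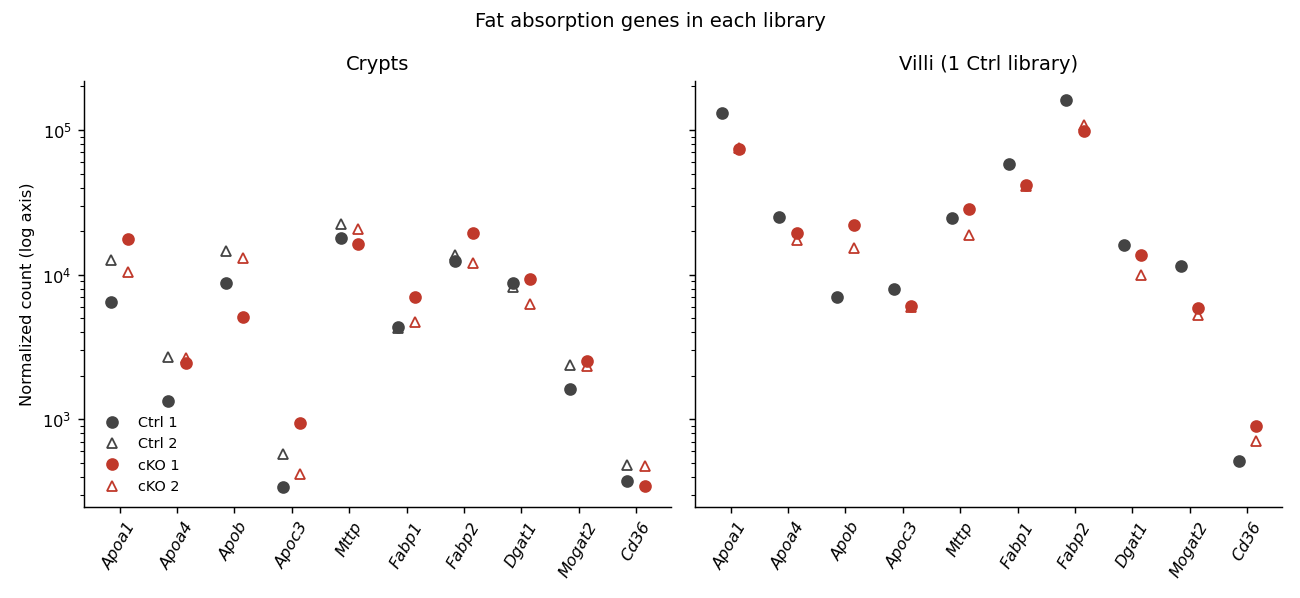
Normalized count (log axis) of each member in every distinct library, Ctrl in grey and cKO in red, crypts at left and villi at right. The crypt groups overlap for every member except *Fabp1*, while in villi *Apob* and *Cd36* lie above the Ctrl library in both cKO libraries and 7 members lie below it.

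The third comparison was the same in villi, where the single Ctrl library allows values and no test. 7 of the 10 members lay below the Ctrl library in both cKO libraries, against 44.2% of all genes, and 2 of the 10 lay above it in both, against 43.7%. With scaling by library size alone, 3 members lay lower and 2 higher, against 24.3% and 62.6% of all genes, and after the length correction described below 3 lay lower and 4 higher, against 43.5% and 41.3%. Past 2-fold in both cKO libraries was 1 of the 10, *Apob*, against 17% of all genes. The median log2 difference of the members was −0.45, beside −0.01 for all genes. Scaling by library size alone in place of size factors moved the median of all genes to 0.42 and that of the members to −0.02, so the distance between members and all genes stayed close to the first while the sign of single small differences turned.

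*Apob* had 7019.8 in the Ctrl villi and 22005 and 15373 in the cKO villi, log2 differences of 1.65 and 1.13. Both cKO libraries lay more than 2-fold above the Ctrl library. *Cd36* was the other member above Ctrl in both, with 515 in Ctrl and 904 and 709.9 in cKO (0.81 and 0.46). *Mttp*, the partner of *Apob* in assembly, had 24501 in Ctrl and 28484 and 18789 in cKO, on both sides of Ctrl.

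*Mogat2* had 11373 in the Ctrl villi and 5895 and 5279 in the cKO villi, the lowest of the 10 log2 differences (−0.95 and −1.11). *Dgat1*, the next enzyme, had 16027 in Ctrl and 13758 and 9948 in cKO (−0.22 and −0.69). *Apoa1* had 131683 in Ctrl and 74067 and 74552 in cKO (−0.83 and −0.82), the 2 cKO libraries being nearly equal. *Apoa4* had 24851 in Ctrl and 19309.9 and 17276 in cKO (−0.36 and −0.52). *Apoc3* had 7968 in Ctrl and 6098 and 5969 in cKO (−0.39 and −0.42). Both binding proteins also lay below Ctrl in both cKO libraries, *Fabp1* with 57924 in Ctrl and 41492 and 41216 in cKO (−0.48 and −0.49) and *Fabp2* with 160233 in Ctrl and 97843 and 108991 in cKO (−0.71 and −0.56).

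Markers of other cell types and of gut region also differed between the villus libraries. The summed normalized count of the ileum markers, 7 of 7 listed, was 28936 in Ctrl and 10324 and 13304 in cKO. *Fabp6* made up 69.0% of it in Ctrl and 45.0% and 56.4% in cKO, and without *Fabp6* the sum was 8972 in Ctrl and 5679 and 5803 in cKO. The sum of the jejunum and duodenum markers, 7 of 8 listed, was 30987 in Ctrl and 26044 and 33942 in cKO. The lymphocyte markers, 7 of 7 listed, summed to 7688 in Ctrl and 2367 and 3276 in cKO. *Igkc* gave 5063 of the Ctrl sum and 537 and 935 of the cKO sums. *Cd8a* had 843 in Ctrl and 758 and 931 in cKO, on both sides of Ctrl. Of the 7 lymphocyte markers, 4 lay lower and 1 higher in both cKO libraries. The macrophage markers, 8 of 8 listed, summed to 6399 in Ctrl and 2494 and 3244 in cKO. The stem and crypt markers, 11 of 11 listed, lay the other way from most members, with sums of 9006 in Ctrl and 14180 and 10487 in cKO, 7 of 11 higher in both cKO libraries, and a median log2 difference of 0.52 (0.99 after the length correction described below). The enterocyte sum was 326238 in Ctrl and 342067 and 267246 in cKO, on both sides of Ctrl. No marker of these lists stood at 0 in a library where it was listed. The part of these markers in the values of the members was not tested.

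The members differ widely in transcript length, from 553 bases for *Fabp1*, 709 for *Apoc3*, 965 for *Fabp2* and 1035 for *Apoa1*, through 1780 for *Mogat2*, 1815 for *Apoa4* and 1888 for *Dgat1*, to 3399 for *Cd36*, 3963 for *Mttp* and 13934 for *Apob* (longest coding transcript in GENCODE M21). Differences from Ctrl followed length over all genes, steeply in 3 of the 4 cKO libraries and weakly in crypt cKO replicate 2. In crypt cKO replicate 1, the shortest 10% of genes had a median log2 difference of 0.85 and the longest 10% −0.65. In crypt cKO replicate 2 the medians were −0.16 and 0.11. In the villi the slope had the other sign, with −0.83 and 0.91 in cKO replicate 1 and −0.74 and 0.82 in cKO replicate 2. In the 3 steep libraries most members lay along the trend, with *Apob* at one end and *Apoa1*, *Apoc3*, *Fabp1* and *Fabp2* at the other. This did not hold in crypt cKO replicate 2. There *Apoa1* (0.20) and *Fabp1* (0.12) lay above Ctrl, and *Apoc3* (−0.085) and *Fabp2* (−0.10) below it. *Apoa4* (0.48) and *Dgat1* (−0.44) lay farthest from Ctrl in that library.

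**Figure D3:**
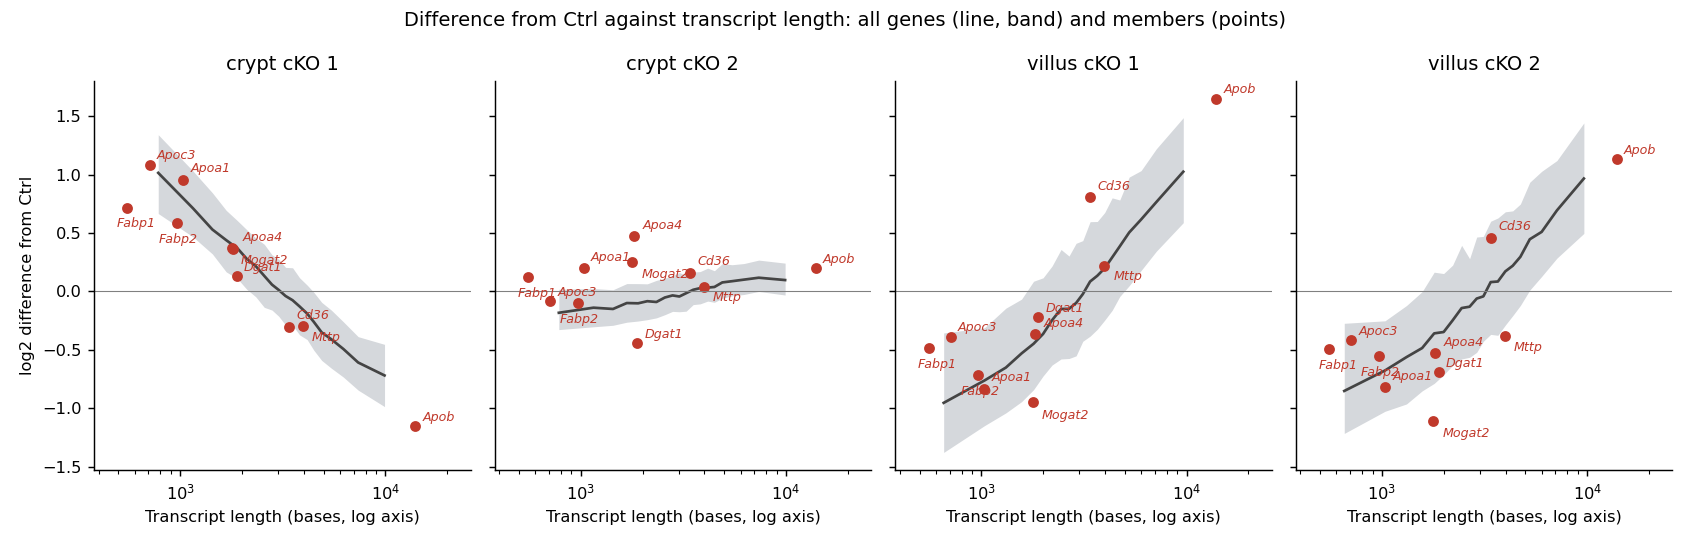
Log2 difference of each cKO library from Ctrl against transcript length (log axis). The line and band give the median and the quartiles of all genes in 20 bins of length and the red points are the members. Crypt cKO 1 slopes down, both villus cKO libraries slope up, crypt cKO 2 rises slightly, and *Apob* sits at the far end of each.

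After a curve over length was subtracted from each library, the villus mean log2 difference of *Apob* went from 1.39 to 0.19 (0.40 and −0.02 in the 2 libraries), and 0 of the 10 members were past 2-fold, where 6.87% of all genes were higher and 2.92% lower. *Apoa1* went from −0.83 to −0.17, *Fabp2* from −0.63 to 0.06, *Apoc3* from −0.40 to 0.50 and *Fabp1* from −0.49 to 0.64, so the last 3 changed sign. *Mogat2*, of middle length, went from −1.03 to −0.67 and *Cd36* from 0.63 to 0.55, with both cKO libraries on the same side of Ctrl. The median of the members was −0.02, beside −0.02 for all genes. *Apob* lies at the far end of the curve, with 67 genes of its length or longer in the villus table.

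In the crypts the corrected log2 fold changes of the members lay between −0.28 (*Dgat1*) and 0.29 (*Apoa4*), with −0.08 for *Apob*, 0.06 for *Apoc3*, −0.10 for *Fabp1* and −0.09 for *Fabp2*. The 1 member whose groups then did not overlap was *Dgat1*, lower in cKO, in place of *Fabp1*, where 28.7% of all genes did not overlap. The median of the members was −0.05, with −0.17 in cKO replicate 1 and 0.15 in cKO replicate 2. The 2 corrected cKO libraries lay at −0.53 and 0.32 for *Fabp1*, −0.29 and 0.13 for *Apob*, and −0.25 and 0.06 for *Fabp2*. Both lay above the Ctrl mean for 2 of the 10 members and below it for 1.

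**Figure D4:**
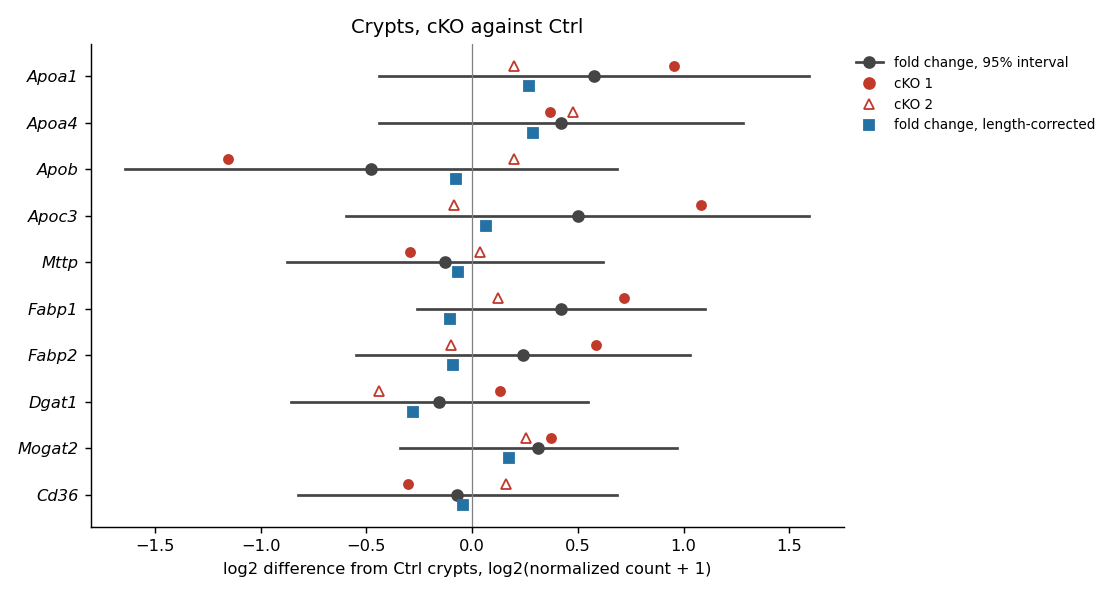
Crypt log2 fold change of each member with its 95% confidence interval from limma (grey, 2 cKO against 2 Ctrl), the difference of each cKO library from the Ctrl mean (red), and the length-corrected fold change (blue squares). Every interval includes 0, and the corrected values lie within −0.28 and 0.29.

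Ratios between members within a library were formed from the same reads, so they are no separate support for the trend with length. *Apob* had 1.37 and 1.14 reads per read of *Apoa1* in the Ctrl crypts, 0.290 and 1.25 in the cKO crypts, 0.0533 in the Ctrl villi, and 0.297 and 0.206 in the cKO villi. Crypt cKO replicate 1 stood apart from the other 3 crypts. *Fabp2* and *Fabp1*, both short, kept a ratio of 2.36 to 3.22 in all 7 libraries. *Dgat1* and *Mogat2*, of nearly equal length, had a ratio of 5.47 and 3.46 in Ctrl crypts, 3.68 and 2.68 in cKO crypts, 1.41 in the Ctrl villi, and 2.33 and 1.88 in the cKO villi. This ratio was lower in all 3 villus libraries than in all 4 crypt libraries.

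The other genes of fat absorption were read as 6 lists of 83 genes in all, of which 77 were listed in the crypt table and 79 in the villus table. In the crypts, none of the 77 passed the threshold in limma, where 0.182% of all genes did, and none an adjusted p of 0.05, where 0% did. An unadjusted p under 0.05 in limma was reached by 2 of the 77, against 0.632% of all genes. edgeR called none of the 77, and 20 higher and 3 lower of all 11553 genes it kept. DESeq2 called 1 of the 77 (*Apoe*), and 60 higher and 5 lower of all 11554 genes. The groups did not overlap for 15 genes higher in cKO, against 9.73% of all genes, and for 10 genes lower, against 11.3%. The median log2 fold change was −0.01 over these genes and over all genes.

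For uptake and activation, 12 of 12 genes were listed, 3 had non-overlapping groups, all higher in cKO, and the median was 0.09. The share of all genes without overlap, in either direction, was 21%, to be set beside this list and those that follow. *Fabp5*, another fatty acid binding protein, had 213 and 242 in Ctrl crypts and 353 and 349.8 in the cKO crypts (log2 fold change 0.63, SE 0.30), but 288 in the Ctrl villi and 199.6 and 155 in the cKO villi. *Slc27a1*, a fatty acid transport protein, had 530.4 and 545 in Ctrl crypts and 636 and 656 in the cKO crypts (0.26, SE 0.25).

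For re-esterification, 12 of 14 genes were listed, without *Mogat1* and *Gpat2*, and 3 lay higher and 3 lower in cKO without overlap, with a median of −0.01. *Dgat2*, which shares the reaction of *Dgat1*, had 1180 and 1312 in Ctrl crypts and 1774 and 1392 in the cKO crypts (0.34, SE 0.25), and *Agpat3*, an acyltransferase for lysophosphatidic acid, had a log2 fold change of 0.35 (SE 0.26). *Lpin1*, a phosphatidate phosphatase, had 439 and 339 in Ctrl and 214 and 242 in cKO (−0.76, SE 0.32, unadjusted p = 0.048 and adjusted p = 1.00 in limma). Both cKO libraries lay below both Ctrl libraries for *Lpin1*, and also for *Gpat3*, a glycerol-3-phosphate acyltransferase (−0.34, SE 0.26). For lipid droplets and their lipolysis, 11 of 13 genes were listed, the median was 0.06, and the 1 gene without overlap was *Lipe*, hormone-sensitive lipase, lower in cKO (−0.34, SE 0.28).

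For chylomicron assembly and export, 22 of 24 genes were listed, 6 lay higher and 4 lower without overlap, and the median was −0.12. *Apoe*, an apolipoprotein that macrophages also make, had 312 and 158 in Ctrl crypts and 443 and 634 in the cKO crypts (1.25, SE 0.41, unadjusted p = 0.020 and adjusted p = 1.00 in limma). In the villi it had 2284 in Ctrl and 463 and 1185 in cKO. The macrophage markers, 3 of 8 listed in the crypts, summed to 924 and 493 in Ctrl crypts and 1171 and 1941 in the cKO crypts. This was the same order of libraries as *Apoe*. *Lyz2* gave 779 and 415 of the Ctrl sums and 1074 and 1595 of the cKO sums, so the order is mainly that of *Lyz2*. The part of these markers in the value of *Apoe* was not tested. *Pla2g12b*, needed for large lipoproteins, had a log2 fold change of 0.56 (SE 0.32), and *Mia3*, which helps load large cargo into transport vesicles, of −0.31 (SE 0.28). *Tm6sf2*, which acts in lipoprotein lipidation, had −0.25 (SE 0.24).

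Among the regulators, 14 of 14 were listed, 2 lay higher and 1 lower without overlap, and the median was −0.06. *Creb3l3*, a transcription factor of lipid metabolism, had 1460 and 1764 in Ctrl crypts and 2325 and 2153 in the cKO crypts (0.48, SE 0.24, unadjusted p = 0.090 in limma). *Srebf1*, a regulator of lipid synthesis, had a log2 fold change of 0.33 (SE 0.24), and *Ppard*, a nuclear receptor for fatty acids, of −0.34 (SE 0.25). Of the 6 sterol transport genes, *Abcg5*, a sterol exporter, lay lower in cKO without overlap (−0.24, SE 0.25), and the median was −0.08.

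In the villi, 43 of the 79 genes lay below Ctrl in both cKO libraries, where 44.2% of all genes did, and 24 above, where 43.7% did, with a median log2 difference of −0.28, beside −0.01 for all genes. Past 2-fold were 5 genes higher in cKO, against 10.6% of all genes, and 2 lower, against 6.4%, named here after their values were seen. The 5 were *Acsl3*, an acyl-CoA synthetase (49.8 in Ctrl, 135 and 136 in cKO), *Ces1d*, a carboxylesterase (53.3, 135 and 142), *Mia2* (895, 2361 and 1981) and *Mia3* (357, 1004 and 769.8), partners in the export of large cargo, and *Abca1*, a cholesterol exporter (176, 537 and 358). After the length correction *Abca1*, with a transcript of 10262 bases, went from 1.31 to 0.33, *Acsl3* from 1.42 to 1.23, *Mia2* from 1.27 to 0.98, *Mia3* from 1.30 to 1.32 and *Ces1d* from 1.36 to 1.64. The 2 lower were *Nr1h3*, the sterol-sensing receptor LXR alpha (2078, 910 and 1014), and *Fabp6*, the ileal bile acid binding protein (19965, 4645 and 7501), which is itself one of the ileum markers. After the same correction *Fabp6*, with a transcript of 479 bases, went from −1.76 to −0.52, and *Nr1h3* from −1.11 to −0.82.

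**Figure D5:**
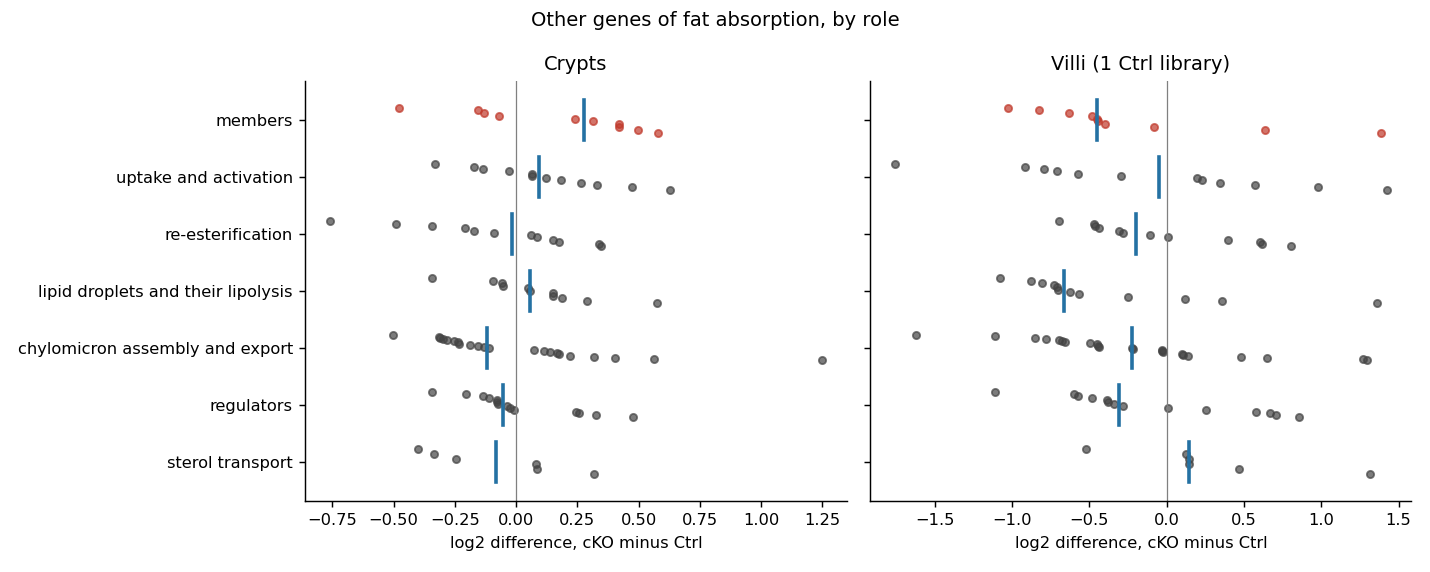
Log2 difference, cKO minus Ctrl, of the members (red) and of the genes of the 6 lists (grey), in crypts at left (fold change, 2 against 2 libraries) and villi at right (mean of 2 cKO libraries minus 1 Ctrl library). Blue bars are medians. The crypt medians of the lists lie between −0.12 and 0.09, and *Apoe* at 1.25 is the highest crypt value.

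Outside the lists that name the members, the genes whose CPM followed the mean log2 profile of the 10 members most closely over the 7 libraries included *H2-Q2* (Pearson's r 0.997), *Sardh* (0.995), *Grina* (0.994) and *Cyp2b10* (0.994), of 11227 genes. The 7 points share 2 tissues, and the profile is mainly the difference between them. Of the members, *Apoa4* lay closest to that profile (0.995) and *Apob* farthest (0.576). Each member is part of the mean it was compared with, so its r is not comparable with those of the genes above.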

How the data were processed

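The authors aligned reads to mm10 with STAR and compared groups with DESeq2 (submitters' processing notes and methods). The counting program, strand setting, annotation and tool versions are not given in the sources used here, so *Apoa1*, *Apoc3* and *Apoa4*, which neighbour each other, cannot be checked for antisense reads. The labels and the methods name different library kits. The deposited values are a signal per library, gene counts divided by size factors, and the tables also hold the authors' fold changes and p-values, which were not used. From the spacing of the values 100% came out as whole reads (tolerance 0.01). Genes were tested with limma-trend 3.58.1 (R 4.3.3) on log2(value + 1), mean at least 1, over all 11554 crypt genes with Benjamini-Hochberg adjustment and no block. edgeR 4.0.16 and DESeq2 1.42.0 used the recovered reads. The methods state 2 biological replicates. Lengths came from GENCODE M21 (11546 crypt and 12692 villus genes) and were corrected by a lowess curve, span 0.3, per library. The fits were tested on simulated data. The members, lists and alternatives were chosen with earlier results of these data known. Named were all members, per list up to 2 highest and 2 lowest crypt fold changes among genes without overlap and any gene past the threshold, the 2 highest genes of each marker list, and the 5 genes nearest the members' profile, of which some are not reported here. Alternatives were other tools, scaling, filters, pseudocount 0.1, the replicate block, and leaving out libraries.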

Additional observations from a re-analysis of the deposited data

Results flagged for a closer look

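For 9 of the genes named above, every cKO crypt library lay on one side of both Ctrl crypts and every cKO villus library on the other side of the Ctrl villus library. The difference between the tissues was not tested, and the single Ctrl villus library serves every villus value. *Fabp1* had 0.42 in crypts and −0.49 in villi (log2 fold change and mean log2 difference, cKO minus Ctrl). *Fabp5* had 0.63 and −0.71, *Agpat3* 0.35 and −0.44, *Pla2g12b* 0.56 and −0.49, *Creb3l3* 0.48 and −0.38, and *Apoe* 1.25 and −1.62. *Lpin1* had −0.76 and 0.60, *Mia3* −0.31 and 1.30, and *Abcg5* −0.24 and 0.47. After the length correction *Fabp1* was at −0.10 in crypts and 0.64 in villi, *Pla2g12b* at 0.27 and 0.14 and so on the same side in both, *Fabp5* at 0.30 and −0.033, and *Lpin1* at −0.59 and 0.10. The corrected values of *Agpat3* were 0.54 and −0.995, of *Creb3l3* 0.42 and −0.19, of *Apoe* 1.03 and −1.12, of *Mia3* −0.31 and 1.32, and of *Abcg5* −0.30 and 0.64. Of the 16 named genes without overlap in the crypts, these 9 lay on opposite sides in the tissues and 4 on the same side, and 1453 of the 2343 such genes that both tables list lay on opposite sides.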

How the results depend on the processing

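In the crypts no member was called without a filter, with at least 10 in every library, with a pseudocount of 0.1, with edgeR, DESeq2, library size scaling, length correction or the replicate block. Same-numbered libraries are not stated to share a litter or day, and their deviations correlated at 0.247. The block raised the genes past the threshold from 21 to 63 higher and 15 lower, 0 members among them, with *Apoa1* lowest at an unadjusted p of 0.087 in limma. Of the pathway genes, 0 in the report, the block and DESeq2 each called 1, *Apoe*, and DESeq2 called 60 genes higher and 5 lower in all. Over left-out libraries, members past the threshold ranged from 0 to 2, those with an adjusted p under 0.05 from 0 to 3, pathway genes past each from 0 to 4 and from 0 to 9, and members without overlap from 3 to 9. All member calls came without cKO replicate 2, where the lone cKO library is assumed to vary like the Ctrl libraries. They were *Apob* and *Apoc3*, with *Fabp1* added by adjusted p. The members' crypt median ranged from −0.028 (without Ctrl replicate 1) to 0.37, and was −0.054 after length correction, with and without the block. The villus median was −0.017 with library size scaling and −0.021 with length correction, and ranged from −0.51 to −0.37 over left-out libraries. Villus members past 2-fold were 0 after length correction and 1 to 2 over left-out libraries, *Mogat2* joining without cKO replicate 1. After length correction, with and without the block, *Fabp1* was at −0.10 and *Fabp2* at −0.090. Over left-out libraries the crypt log2 fold change of *Apoa4* ranged from −0.092 (without Ctrl replicate 1) to 0.93, and that of *Mttp* from −0.30 to 0.038 and of *Cd36* from −0.30 to 0.16, with the other sign without Ctrl replicate 2 (0.028 and 0.12) or cKO replicate 1. *Apob* ranged from −1.15 to 0.20, *Apoc3* from −0.085 to 1.08 and *Fabp2* from −0.10 to 0.58, turning without cKO replicate 1, and *Dgat1* from −0.44 to 0.13, turning without cKO replicate 2. *Apoa1* ranged from 0.084 (without Ctrl replicate 1) to 1.07 (without Ctrl replicate 2), *Mogat2* from 0.036 to 0.59 without the same libraries, and *Fabp1* from 0.12 (without cKO replicate 1) to 0.72 (without cKO replicate 2). The cause was not tested. The lowest mean of a crypt gene was 48.4, and all members lay above 337 in every library.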
